A study of Homo sapiens with 16 samples.

Results

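The cytosolic and mitochondrial heat shock proteins described here are 10 genes chosen by name: HSP90AA1, HSP90AB1, HSPA8, HSPA1A, HSPA1B, HSPH1, HSPA4, DNAJB1, HSPD1 and HSPE1. All 10 were listed in each of the 16 libraries, out of 12587 genes listed in any library. The libraries come from 8 samples of A549, an established human lung adenocarcinoma line, with 1 input library (fragmented total RNA, the mRNA level) and 1 footprint library (mRNA pieces shielded by ribosomes) per sample. TPM, the deposited unit, divides a gene's reads by its length and gives every library the same sum, and the footprint to input ratio of TPM is called translation efficiency (TE).

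The samples fall into 3 tables, each with 1 control. The sgM16 table holds A549 cells labelled as having no treatment (untreated) and 2 hybrid clones made with 1 guide RNA against METTL16, an RNA methyltransferase. In the text of the series the guide control is named sgNS, so whether the control carries a guide is not settled by the labels, and guide delivery or cloning cannot be told apart from METTL16. The shM16 table holds a scrambled-hairpin control (shscramble 1) and 1 sample with a hairpin against METTL16 (labelled shM16-2, written shM16 here). The sheIF4E2 table holds a second scrambled-hairpin control (shscramble 2) and 2 biological replicates with a hairpin against eIF4E2, a cap-binding protein known as a repressor of initiation. All cells, controls included, received fresh medium for 2 h and then cycloheximide, which stops elongating ribosomes, at 100 µg/mL for 5 min. No heat or proteotoxic stress is named in the labels, and whether the cells were free of stress was not tested. The labels do not say whether the 2 clones were cultured separately more than once, and the p-values measure only the spread between these samples.

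Heat shock proteins are molecular chaperones that bind unfolded or partly folded proteins. HSP90 holds client kinases and receptors in a form that can be activated, HSP70 cycles on and off exposed hydrophobic segments with the help of J-domain proteins (DNAJ) and nucleotide exchange factors, and the HSP60 and HSP10 pair forms a folding chamber in the mitochondrial matrix. Under stress the transcription factor HSF1 binds heat shock elements, inverted repeats of the letters GAA, and raises the inducible genes, while the constitutive copies keep a high level at rest. Tumour cells such as A549 are known to depend on a high chaperone level.

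Heat shock element letters in the windows around the annotated transcription starts are shown first because they are the feature that HSF1 target genes share. In RefSeq windows of GRCh38.p14 that reach from 250 bases before to 50 bases after a start, the letters GAANNTTC or TTCNNGAA (2 inverted units, both being their own reverse complement) occurred in at least 1 window of 7 of the 10 genes. Counted the same way, 16.2% of 27305 genes with such windows held them. The longer run of 3 units, in which GAANNTTC and TTCNNGAA share their middle unit, occurred in 4 genes (HSP90AA1, HSP90AB1, HSPA8 and HSPD1) and in 0.608% of all genes. Windows of HSPH1, HSPA4 and HSPE1 held neither. These are letter matches in short windows, and some of these genes have several annotated starts, so they are not binding sites and their absence in a window says only that the letters are not there.

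The 250 bases before an annotated start are printed for 5 genes, with matches to the shorter letters in capitals. The inducible and constitutive HSP90 genes had mRNAs that varied to very different degrees here. The HSPA1A and HSPA1B copies have reads that are hard to assign. HSPA4 is printed as the heat shock gene whose TE varied most like that of HSP90AA1, and its window held no such letters. Whether the letters bear on any level or TE given here was not tested.
HSP90AA1 (GRCh38.p14, minus strand, chr14:102087045-102087294): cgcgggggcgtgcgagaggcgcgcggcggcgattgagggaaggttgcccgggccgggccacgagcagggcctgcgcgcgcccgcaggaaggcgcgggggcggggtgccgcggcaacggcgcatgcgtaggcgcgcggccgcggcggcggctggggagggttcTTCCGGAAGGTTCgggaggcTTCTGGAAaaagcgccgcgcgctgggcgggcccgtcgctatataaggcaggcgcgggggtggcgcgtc
HSP90AB1 (plus strand, chr6:44247693-44247942): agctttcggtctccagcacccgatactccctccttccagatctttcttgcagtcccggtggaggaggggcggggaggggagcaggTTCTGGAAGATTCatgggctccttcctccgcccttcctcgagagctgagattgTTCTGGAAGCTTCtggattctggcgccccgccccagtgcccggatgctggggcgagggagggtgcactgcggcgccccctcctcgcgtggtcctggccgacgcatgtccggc
HSPA1A (plus strand, chr6:31815293-31815542): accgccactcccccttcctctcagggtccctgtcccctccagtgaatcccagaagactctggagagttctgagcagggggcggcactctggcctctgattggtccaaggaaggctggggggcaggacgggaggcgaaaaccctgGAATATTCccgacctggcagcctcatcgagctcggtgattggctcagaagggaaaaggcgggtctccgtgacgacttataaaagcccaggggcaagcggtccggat
HSPA1B (plus strand, chr6:31827488-31827737): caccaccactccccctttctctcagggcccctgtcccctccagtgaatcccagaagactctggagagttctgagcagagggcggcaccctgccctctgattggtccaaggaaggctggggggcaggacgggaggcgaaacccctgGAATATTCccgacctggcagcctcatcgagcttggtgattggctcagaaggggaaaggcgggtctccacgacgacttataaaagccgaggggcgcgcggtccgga
HSPA4 (plus strand, chr5:133051763-133052012): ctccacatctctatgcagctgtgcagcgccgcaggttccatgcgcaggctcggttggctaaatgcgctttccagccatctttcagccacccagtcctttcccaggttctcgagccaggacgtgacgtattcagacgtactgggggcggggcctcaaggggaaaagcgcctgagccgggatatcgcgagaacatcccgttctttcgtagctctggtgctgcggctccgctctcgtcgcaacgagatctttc

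HSP90AA1 and HSP90AB1 have more than 1 annotated start, and the window printed for each is the one that held matches. Their other windows, chr14:102139700-102139999 for HSP90AA1 and chr6:44245944-44246243 and chr6:44246851-44247150 for HSP90AB1, held none. In the printed HSP90AA1 window the 3-unit run begins 88 bases before that start and a further match begins 68 bases before it. The printed HSP90AB1 window held 2 such runs, beginning 165 and 112 bases before its start. The 3-unit runs of HSPA8 begin 230 and 55 bases before its start. In HSPA1A and HSPA1B the single match begins 106 and 105 bases before the start. The full windows of these copies were identical at 277 of 299 aligned bases (92.6%). HSPD1 and HSPE1 lie head to head on chromosome 2 in the same annotation, with HSPD1 at 197486584 to 197500274 on the minus strand and HSPE1 beginning at 197500379 on the plus strand.

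The recovered read totals were 462611 to 699461 in the input libraries and 196995 to 876336 in the footprint libraries. Listed genes summed to less than the whole library in all tables, and in footprints to 35.1% of all TPM in untreated cells against 30.8% and 28.7% in the sgM16 clones, 27.6% in shscramble 1 against 16.1% in shM16, and 17.5% in shscramble 2 against 22.3% and 20.2% in the sheIF4E2 samples. METTL16 input stood at 12.8 TPM in untreated cells and at 6.80 and 6.94 TPM in the sgM16 clones, and at 11.1 TPM in shscramble 1 and 3.50 TPM in shM16. EIF4E2 input stood at 21.4 TPM in shscramble 2 and at 7.69 and 3.57 TPM in the sheIF4E2 samples. Of 10 genes known from A549 and lung epithelium all were listed, with EPCAM listed in 5 and CDH1 in 7 of the 8 input libraries, and no leukocyte or endothelial marker of 3 each was listed in any library. Of 3 fibroblast markers COL1A1 alone was listed, at up to 32.0 TPM in input.

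The 10 mRNAs together made up 0.0918% to 0.146% of all TPM in the input libraries and 0.0540% to 0.208% in the footprint libraries. HSP90AA1, HSP90AB1 and HSPA8 supplied 78.5% to 82.3% of that sum in input and 80.8% to 87.4% in footprints. The highest footprint share was that of untreated cells and the lowest that of shM16. In bulk libraries fewer cells of a type and less RNA per cell cannot be told apart.

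**Figure D1:**
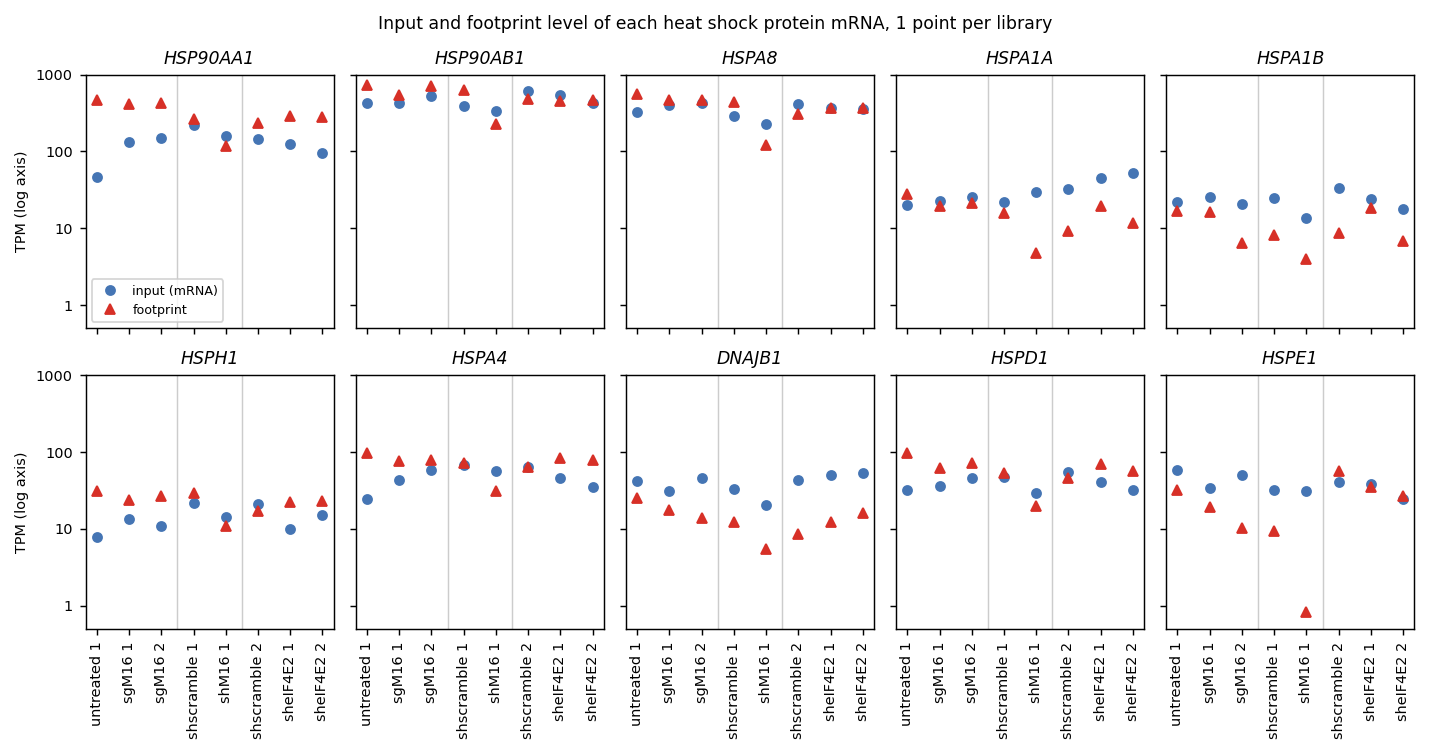
TPM of each heat shock protein mRNA (log axis, the same in all panels) in the 8 samples, with circles for input and triangles for footprints, 1 library per point, and grey lines between the 3 tables. HSP90AA1 input is lowest in untreated cells at 46.2 TPM and highest in shscramble 1 at 221 TPM, while every gene has its lowest footprint value in shM16.

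HSP90AA1, the stress-inducible cytosolic HSP90 (chromosome 14, 102080742 to 102139749), had the mRNA that varied most between samples among the 10. Its input stood at 46.2 TPM (93 reads) in untreated cells, 132 TPM (309 reads) for sgM16 clone 1, 149.9 TPM (308 reads) for clone 2, 221 TPM (386 reads) in shscramble 1, 160.3 TPM (496 reads) in shM16, 144 TPM (256 reads) in shscramble 2, and 126 TPM (268 reads) for sheIF4E2 replicate 1 against 94.2 TPM (205 reads) for replicate 2. The untreated library was the lowest of the 8, and the range from lowest to highest was 4.79-fold. Footprints of HSP90AA1 followed another order, at 463 TPM in untreated cells, 410.0 and 429 TPM in the clones, 261 TPM in shscramble 1, 118 TPM in shM16, 231 TPM in shscramble 2, and 285 and 279 TPM in the sheIF4E2 samples. The untreated library, lowest in mRNA, was thus highest in footprints. TE of HSP90AA1 was 10.0 in untreated cells, 3.12 and 2.86 in the clones, 1.18 in shscramble 1, 0.735 in shM16, 1.605 in shscramble 2, and 2.26 and 2.96 in the sheIF4E2 samples. Among the 8021 genes listed in all libraries with a mean of at least 1 TPM in both assays, this placed HSP90AA1 at the 99.9th percentile of TE in untreated cells, at percentiles 98.8 to 99.6 in the clones, shscramble 2 and the sheIF4E2 samples, and at 85.0 in shscramble 1 and 90.2 in shM16. The tables were listed separately, so levels set across them are a description with no test.

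HSP90AB1, the constitutive cytosolic HSP90 (chromosome 6, 44246194 to 44253883), kept a narrower range in input, from 336 TPM in shM16 to 612 TPM in shscramble 2 (1.82-fold). Its footprints ranged from 224 TPM in shM16 to 723 TPM in untreated cells. TE ranged from 0.666 in shM16 to 1.69 in untreated cells, and lay at percentiles 77.4 to 94.3.

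The HSP90AA1 to HSP90AB1 ratio within a library does not depend on how libraries are scaled. In input it was 0.108 in untreated cells (exact 95% interval 0.0859 to 0.135, counting error only) against 0.305 and 0.284 in the sgM16 clones, 0.560 in shscramble 1, 0.477 in shM16, 0.235 in shscramble 2, and 0.231 and 0.220 in the sheIF4E2 samples. The interval of untreated cells lay below those of the other 7 input libraries, of which the nearest, sheIF4E2 replicate 2, had an interval from 0.186 to 0.259. In footprints the same ratio was 0.640 in untreated cells, 0.755 and 0.612 in the clones, 0.415 in shscramble 1, 0.527 in shM16, 0.478 in shscramble 2, and 0.633 and 0.6003 in the sheIF4E2 samples. The 2 scramble controls differed from each other in the input ratio by more than the counting intervals, at 0.486 to 0.645 and 0.202 to 0.272. The eIF4E2 knockdown samples lay within the interval of their own scramble control in input.

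**Figure D2:**
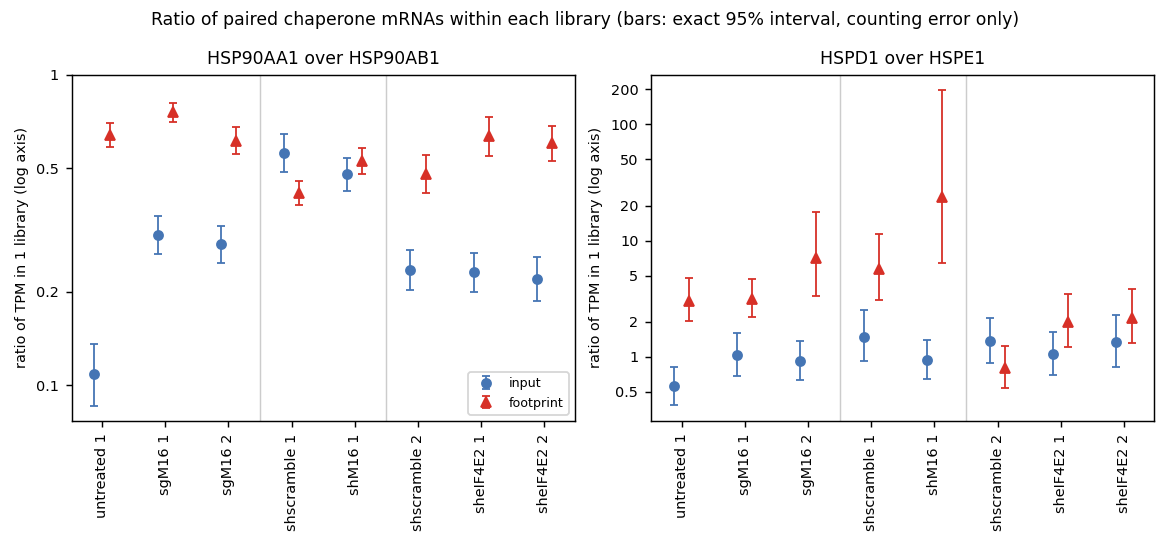
Ratio of HSP90AA1 to HSP90AB1 (left) and of HSPD1 to HSPE1 (right) in TPM within each library on log axes, with circles for input, triangles for footprints and bars for exact 95% intervals of counting error. The input ratio on the left runs from 0.108 in untreated cells to 0.560 in shscramble 1, while the footprint ratio stays between 0.415 and 0.755.

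HSPA8, the constitutive cytosolic HSP70 (HSC70, chromosome 11, 123057489 to 123062462), stood in input between 226 TPM in shM16 and 429 TPM in sgM16 clone 2, a 1.90-fold range. Its footprints ran from 121 TPM in shM16 to 566 TPM in untreated cells, and its TE from 0.537 to 1.73 in the same samples. Among the 10 genes HSPA8 and HSP90AB1 had the highest control means in input, at 343 TPM ± 60.6 and 478 TPM ± 117 (SD, n = 3 controls).

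HSPA1A and HSPA1B, the stress-inducible HSP70 copies on chromosome 6, stood far lower than HSPA8. HSPA1A input was 20.02 TPM (19 reads) in untreated cells, 22.6 and 25.8 TPM (25 reads each) in the clones, 21.9 TPM (18 reads) in shscramble 1, 29.5 TPM (43 reads) in shM16, 32.2 TPM (27 reads) in shscramble 2, and 44.9 TPM (45 reads) for sheIF4E2 replicate 1 against 51.7 TPM (53 reads) for replicate 2. Both sheIF4E2 samples were above the other 6 samples. HSPA1B input ran from 13.7 TPM (21 reads) in shM16 to 33.0 TPM (29 reads) in shscramble 2, and both sheIF4E2 samples, at 23.8 and 17.7 TPM, lay below their control. The coding sequences of these copies are nearly identical, and how reads that match both were counted is not given in the sources used here, so their values are uncertain one by one. Their summed input relative to HSPA8 was 0.129 in untreated cells, 0.121 and 0.108 in the clones, 0.158 in shscramble 1, 0.191 in shM16, 0.159 in shscramble 2, and 0.188 and 0.197 in the sheIF4E2 samples. In footprints the summed copies stood at 0.0508 to 0.101 of HSPA8, below the input ratio of the same sample in all 8 samples. Footprint counts were 7 to 43 reads for HSPA1A and 6 to 38 reads for HSPA1B, which leaves wide intervals.

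DNAJB1, the J-domain protein that hands substrates to HSP70 (chromosome 19, 14514769 to 14560391), stood in input between 20.5 TPM in shM16 and 53.5 TPM in sheIF4E2 replicate 2. Its TE was low, from 0.194 in shscramble 2 to 0.599 in untreated cells, and its TE percentile was 13.1 to 36.6. In each of the 8 samples the TE of DNAJB1 was below the median of the 8021 genes. That median, 0.388 to 0.851, and the percentiles were taken from TPM + 1, whereas the TE values of single genes are plain ratios.

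HSPH1 and HSPA4 encode HSP110-type proteins that exchange nucleotide on HSP70 and take part in protein disaggregation. HSPA4 input (chromosome 5, 133052013 to 133106449) was 24.3 TPM (49 reads) in untreated cells, 43.4 (102 reads) and 57.9 TPM (119 reads) in the clones, 68.2 TPM in shscramble 1, 56.2 TPM in shM16, 64.0 TPM in shscramble 2, and 46.1 and 35.4 TPM in the sheIF4E2 samples. HSPA4 footprints were 97.2 TPM in untreated cells, 76.9 and 79.1 TPM in the clones, 72.5 TPM in shscramble 1, 31.5 TPM in shM16, 64.3 TPM in shscramble 2, and 84.6 and 79.7 TPM in the sheIF4E2 samples. As for HSP90AA1, untreated cells were lowest in mRNA and highest in footprints, with a TE of 3.997 against 1.77 and 1.37 in the clones. HSPH1 input (chromosome 13, 31134973 to 31162388) was the lowest of the 10 in the control mean, at 16.9 TPM ± 7.82 (SD, n = 3 controls). It ran from 7.85 TPM (26 reads) in untreated cells to 21.6 TPM (62 reads) in shscramble 1, and HSPH1 TE from 0.760 in shM16 to 4.02 in untreated cells. The HSPH1 to HSPA4 ratio in footprints stayed between 0.266 and 0.400 over the 8 samples, with counting intervals that overlap between every treated sample and its control.

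HSPD1, the mitochondrial HSP60, and HSPE1, its HSP10 partner, are encoded head to head and gave different patterns in footprints and TE. HSPE1 footprints rest on 2 to 33 reads. HSPD1 input was 32.5 TPM in untreated cells, 35.8 and 46.5 TPM in the clones, 47.5 TPM in shscramble 1, 29.6 TPM in shM16, 55.6 TPM in shscramble 2, and 40.3 and 32.6 TPM in the sheIF4E2 samples. TE of HSPD1 was 3.002 in untreated cells, 1.72 and 1.56 in the clones, 1.12 in shscramble 1, 0.668 in shM16, 0.833 in shscramble 2, and 1.74 and 1.76 in the sheIF4E2 samples. In each sample HSPD1 lay at or above percentile 82.7 of TE. HSPE1 footprints were 32.0 TPM (26 reads) in untreated cells, 19.6 (33 reads) and 10.3 TPM (7 reads) in the clones, 9.42 TPM (11 reads) in shscramble 1, 0.836 TPM (2 reads) in shM16, 57.1 TPM (33 reads) in shscramble 2, and 35.2 TPM (18 reads) for sheIF4E2 replicate 1 against 26.5 TPM (17 reads) for replicate 2. Its TE percentile ran from 0.162 in shM16 to 98.0 in shscramble 2. The 2 scramble controls were 9.42 and 57.1 TPM in HSPE1 footprints, so controls differed here more than treated samples did from their own control in the sgM16 and sheIF4E2 tables. The HSPD1 to HSPE1 ratio in footprints was 3.05 in untreated cells, 3.16 and 7.07 in the clones, 5.67 in shscramble 1, 23.7 in shM16 (6.46 to 197, from 2 HSPE1 reads), 0.811 in shscramble 2, and 1.99 and 2.16 in the sheIF4E2 samples. In input that ratio stayed between 0.558 and 1.48.

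**Figure D3:**
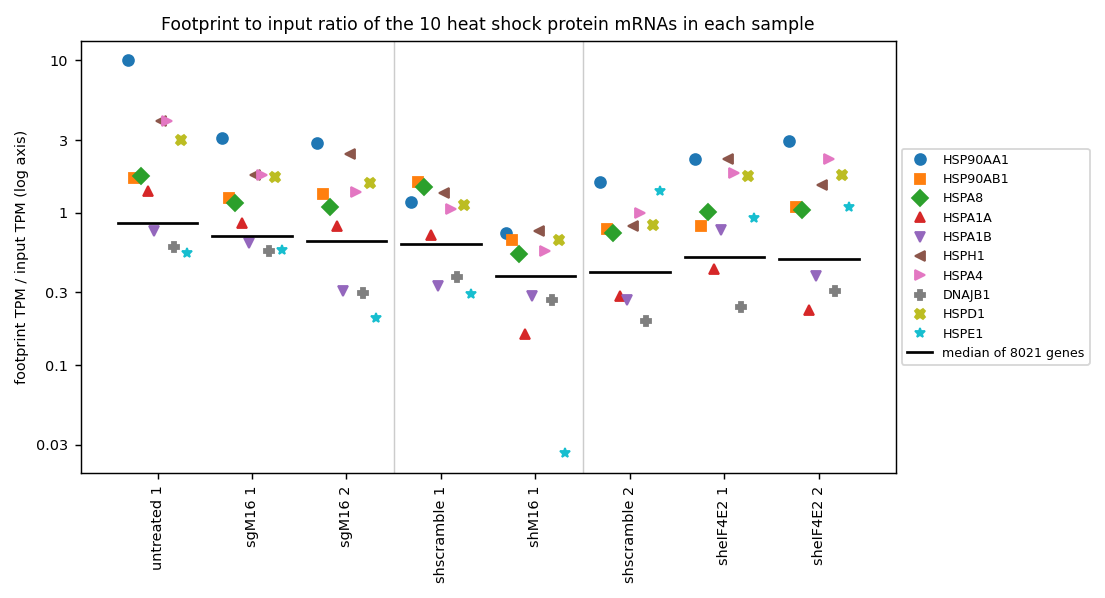
Footprint to input ratio of TPM (log axis) of the 10 heat shock protein mRNAs in each of the 8 samples. A black bar marks the median of 8021 genes, taken from TPM + 1. HSP90AA1 stands at 10.0 in untreated cells, where the median gene stands at 0.851, and the lowest point is HSPE1 in shM16 at 0.0264.

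Across the 8 samples the untreated library was highest in TE for 8 of the 10 genes, against 40.5% of the 8021 genes, and highest in footprints for 8 of the 10, against 37.4%. It was lowest in input for 4 of the 10 (HSP90AA1, HSPA1A, HSPH1 and HSPA4), against 21.1% of all genes, and highest in input for 1, HSPE1 (7.23%). The shM16 library was lowest in footprints for 10 of 10 genes (64.5% of all genes), in TE for 8 (34.2%) and in input for 5 (41.2%). All-gene medians of TE, taken from TPM + 1, moved the same way, from 0.851 in untreated cells to 0.388 in shM16. The share of footprint TPM held by listed genes was likewise highest in untreated cells and lowest in shM16, as given above, and its part in these orders was not tested. Footprint reads recovered for listed genes were 498577 in untreated cells and 536682 in shM16. Listed genes held 35.1% and 16.1% of footprint TPM there, so these totals are not the depth of the whole libraries.

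The sgM16 clones against untreated cells ask how the chaperone mRNAs stand when METTL16 is targeted by a guide. HSP90AA1 and HSPA4 mRNA stood higher in both clones, with log2 footprint changes of -0.14 and -0.31 against a median of -0.23 for all genes. By reads their footprint intervals lay below 1 in clone 1 and included 1 in clone 2 (0.845 to 1.02 and 0.657 to 1.01). TE was lower than the control in both clones for 9 of the 10 genes, against 55.1% of 8505 genes, HSPE1 being the exception in clone 1. No gene of the 10 passed the test in any of the 3 measures with limma at an adjusted p of 0.05 over all genes, which called 0.0118% of genes in input, 0 in footprints and 0 in TE. At an unadjusted p of 0.05, 2 of the 10 passed in input (10.8% of all genes), 1 in footprints (7.11%) and 2 in TE (8.57%), and voom on the recovered reads called 0 of the 10. The lone control is assumed to vary as the clones do, which these samples cannot show.

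By gene, the log2 change of HSP90AA1 input was 1.58 (SE 0.25, adjusted p = 0.186, limma), and by reads the clones had 2.85 (2.25 to 3.63) and 3.24 times (2.56 to 4.14) the control's level. HSPA4 input changed by 1.01 (SE 0.29, adjusted p = 0.329), with read ratios of 1.78 (1.26 to 2.56) and 2.38 (1.69 to 3.39). Both sets of intervals lie above 1, where they cover counting error within these libraries and not the spread between cultures. For the other genes the input change was 0.57 for HSPH1, 0.35 for HSPA8, 0.32 for HSPD1, 0.26 for HSPA1A, 0.16 for HSP90AB1, 0.061 for HSPA1B, -0.14 for DNAJB1 and -0.48 for HSPE1. Higher input in both clones was found for 7 of the 10 (43.3% of all genes) and lower input for 1, HSPE1 (29.6%), and the median of the 10 was 0.29 against 0.10 for all genes, and 0.17 after median-of-ratios scaling. With both scramble libraries as the control, a comparison across tables chosen after the data had been seen, the median was -0.21, HSP90AA1 input -0.34 and HSPA4 input -0.39. HSP90AA1 was the 1 gene of the 10 higher by at least 1 log2 unit in both clones (4.22% of all genes). HSPA1B, at 0.061, stood at -0.057 after median-of-ratios scaling.

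In footprints all 10 lay below the control in both clones (52.9% of all genes), with a median of -0.38 against -0.23. HSP90AA1, at -0.14, and HSP90AB1, at -0.23, stood slightly above the control once libraries were rescaled by median of ratios (0.10 and 0.013), and HSP90AA1 also with quantile normalization (0.16). HSPE1 had the lowest value, -1.12 (SE 0.42, adjusted p = 0.673), from 33 and 7 reads against 26. TE changed by -1.72 in HSP90AA1 (SE 0.35, adjusted p = 0.561), a read-based ratio of 0.311 (0.241 to 0.399) and 0.286 (0.220 to 0.369) of the control. HSPA4 TE changed by -1.33 (SE 0.41, adjusted p = 0.561), at 0.444 (0.297 to 0.658) and 0.343 (0.226 to 0.515) of the control. These 2 genes were the ones lower by at least 1 log2 unit in both clones, a size reached by 9.21% of all genes. HSPH1 followed at -0.88, HSPD1 at -0.86, HSPA1B at -0.73, HSPA1A at -0.71, HSPE1 at -0.64, HSPA8 at -0.62, DNAJB1 at -0.52 and HSP90AB1 at -0.39. The median TE change of the 10 was -0.72, against -0.33 for all genes, and -0.37 after median-of-ratios scaling. Against both scramble libraries the clones' medians were 0.31 in footprints and 0.57 in TE, and the TE change of HSP90AA1 was 1.11. The direction of the medians in input, footprints and TE thus turns with the control used.

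**Figure D4:**
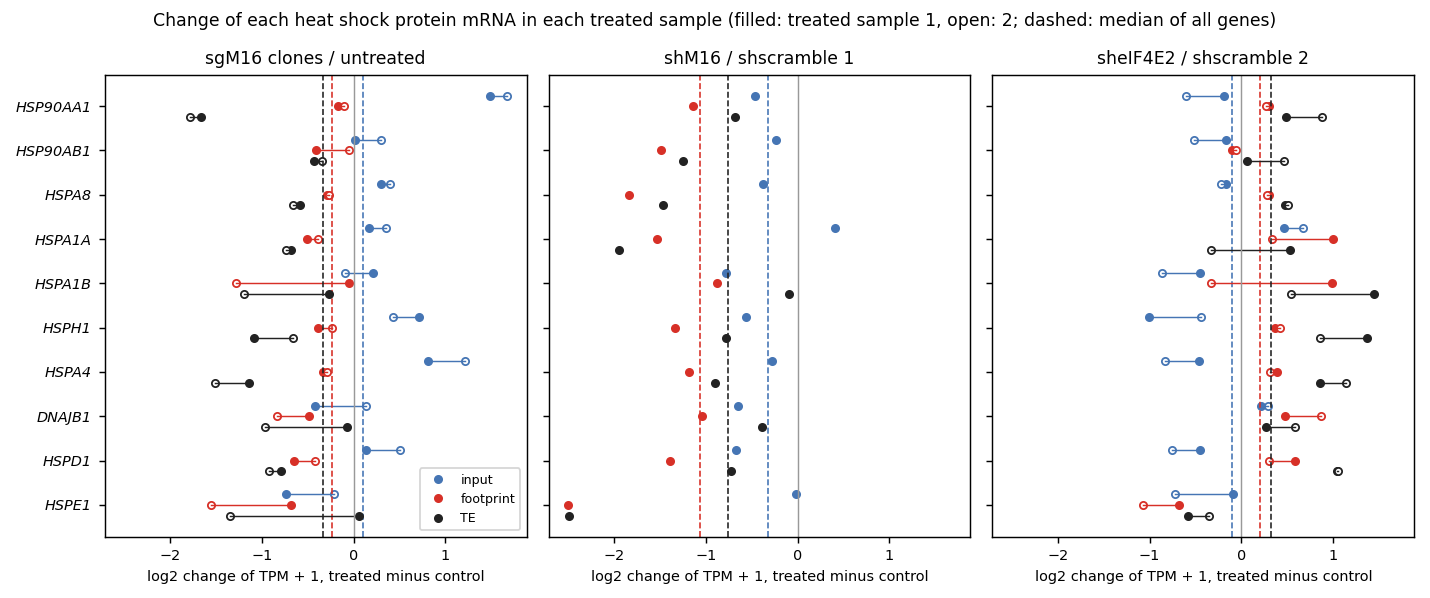
Log2 change of TPM + 1 in each treated sample against the control of its table, for input (blue), footprints (red) and TE (black), with filled points for treated sample 1, open points for treated sample 2 and dashed lines at the all-gene medians. HSP90AA1 stands apart in the sgM16 panel at 1.58 in input and -1.72 in TE on average, whereas nearly all points of the shM16 panel are below 0, as are its all-gene medians.

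The METTL16 hairpin against shscramble 1 asks the same of a knockdown, with 1 sample on each side, so it has values and no test across samples. Footprints of all 10 mRNAs were lower in shM16 (95.2% of 8168 genes), 9 of them by at least 1 log2 unit (54.4%). Input was lower in 9 (71.2%) and higher in 1, HSPA1A (28.8%), and TE was lower in 10 (84.3%), with 4 lower in TE by at least 1 log2 unit (36% of all genes). Medians of the 10 were -0.42 in input, -1.36 in footprints and -0.84 in TE, against -0.32, -1.06 and -0.76 for all genes. After median-of-ratios scaling they became -0.062, -0.10 and 0.081, and the sign turned to positive for 3 genes in input, 4 in footprints and 6 in TE. In input these were HSP90AB1 (0.12), HSPA4 (0.077) and HSPE1 (0.33), in footprints HSP90AA1 (0.17), HSPA1B (0.24), HSPA4 (0.11) and DNAJB1 (0.13). In TE they were HSP90AA1 (0.28), HSPA1B (0.68), HSPH1 (0.13), HSPA4 (0.033), DNAJB1 (0.43) and HSPD1 (0.20).

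Relative to the all-gene median, HSPE1 and HSPA1A stood lowest in TE. HSPE1 TE was -2.49, or -1.73 relative to that median, at percentile 1.42 of all genes. It rests on 2 footprint reads against 11, a footprint ratio of 0.0887 (0.00955 to 0.406), while its input ratio was 0.986 (0.554 to 1.80). HSPA1A TE was -1.94 (-1.18 relative to the median, percentile 4.81), from an input of 43 reads against 18 (ratio 1.35, 0.760 to 2.48) and footprints of 15 reads against 24 (ratio 0.305, 0.149 to 0.606). HSPA8 TE was -1.46, with an exact ratio of 0.362 (0.311 to 0.4197), and HSP90AB1 TE was -1.25, at 0.419 (0.359 to 0.490). HSP90AA1 TE was -0.68, or 0.084 relative to the median, and its input ratio was 0.724 (0.633 to 0.829). HSPH1, HSPA4 and HSPD1 stood at -0.78, -0.90 and -0.72, each within 0.15 of the all-gene median, DNAJB1 at -0.39 and HSPA1B at -0.09. Each against its own control, 6 of the 10 genes, HSP90AA1 among them, had a higher input in both guide clones and a lower one in the hairpin sample, a pattern of 32.2% of the 7503 genes in both tables. The difference between the 2 depletions was not tested.

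The eIF4E2 hairpin against shscramble 2 asks how the same mRNAs stand when a cap-binding repressor is depleted. Input lay lower in both knockdown samples for 8 of the 10 genes (46% of 8597 genes) and higher for 2, HSPA1A and DNAJB1 (30.1%). Footprints were higher in both samples for 7 (48%) and lower for 2, HSP90AB1 and HSPE1 (22.6%). TE was higher in both for 8 (52.8%) and lower for 1, HSPE1 (19.4%). None of the 10 passed with limma, which called 0.0116% of genes in input, 0.628% in footprints and 0 in TE. At an unadjusted p of 0.05, 1 passed in input (7.22%), 1 in footprints (16.4%) and 2 in TE (9.39%), and voom on recovered reads again called 0 of the 10.

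HSPH1 TE changed by 1.11 (SE 0.52, adjusted p = 0.544), with read-based ratios of 2.74 (1.495 to 5.09) and 1.86 (1.07 to 3.24). HSPD1 TE changed by 1.05 (SE 0.39, adjusted p = 0.520) and was the gene of the 10 higher by at least 1 log2 unit in both samples (10.1% of all genes), at ratios of 2.09 (1.47 to 2.98) and 2.11 (1.47 to 3.05). HSPA4 TE changed by 1.00 (SE 0.37, adjusted p = 0.516), with ratios of 1.83 (1.23 to 2.71) and 2.24 (1.502 to 3.36). In these 3 genes lower input and higher footprints met: their input changes were -0.72, -0.60 and -0.65, and their footprint changes 0.39, 0.45 and 0.35. The medians of all genes had the same signs, at -0.10 in input and 0.20 in footprints. The 3 footprint changes lay at percentiles 62.0, 65.3 and 59.2 of all genes, and the share of all genes with both signs was not counted. HSP90AA1 had the signs of these 3 genes with smaller sizes, -0.40 in input, 0.29 in footprints and 0.68 in TE. Its footprint value was -0.054 with quantile normalization. HSPA8 footprints, at 0.29, likewise stood at -0.0057 with that normalization. HSPA8 TE stood at 0.49 (SE 0.22) and HSPA1B at 0.99 (SE 0.78), DNAJB1 at 0.43, HSP90AB1 at 0.26 and HSPA1A at 0.10. With median-of-ratios scaling HSP90AB1 and HSPA1A turned to -0.085 and -0.23. HSPE1 stood apart at -0.88 in footprints (SE 0.35, adjusted p = 0.275) and -0.47 in TE. The median TE change of the 10 was 0.58 against 0.32 for all genes, and 0.24 after median-of-ratios scaling.

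HSPA1A input was 1.40 (0.848 to 2.34) and 1.61 times (0.992 to 2.66) that of the control, and HSPA1B input 0.722 (0.406 to 1.28) and 0.536 times (0.284 to 0.989). The log2 change was 0.57 (SE 0.36, adjusted p = 0.793) for HSPA1A and -0.66 (SE 0.55, adjusted p = 0.860) for HSPA1B. Opposite directions in copies that share reads are given as values only.

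Genes whose TE varied most like that of HSP90AA1 over the 8 samples were sought among 3200 genes with a mean of at least 10 TPM in both assays. Among those with the highest Pearson correlation of log2 TE were ETFA (r = 0.986), TNPO1 (0.985), PARD3 (0.985) and KIF5B (0.983), as a description over 8 samples from 3 tables with different depth and no p. The median of r over all genes compared was 0.552. KIF5B TE was 7.09 in untreated cells, 1.93 and 2.31 in the clones, and 0.311 in shM16. Of the heat shock genes HSPA4 came closest (r = 0.951, rank 71), then HSPD1 (0.936, rank 131) and HSPH1 (0.875, rank 387), and HSPE1 was least alike (0.505, rank 1737).

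The wider chaperone network was counted in lists that hold none of the 10 genes. Of the 18 HSP90 cochaperones, which load clients and set the ATPase cycle, 15 were measured in the sgM16 table, with 9 lower and 2 higher in TE in both clones, 16 in the shM16 table, with 15 lower, and 15 in the sheIF4E2 table, with 9 higher and 2 lower. Of all genes 55.1% were lower and 18.0% higher in both clones, 84.3% lower in shM16, and 52.8% higher and 19.4% lower in both sheIF4E2 samples. Their median TE change was -0.30, -0.83 and 0.36, against -0.33, -0.76 and 0.32 for all genes. CACYBP TE, a cochaperone that also binds ubiquitin ligase parts, was -1.01 in the clones and 1.31 in the eIF4E2 knockdown (adjusted p = 0.577 and 0.525), and PTGES3, the p23 cochaperone, was -0.82 and 0.42. AHSA1, which speeds up the HSP90 ATPase, stood at -0.51 and 0.65, and FKBP8 at 0.99 and 0.97.

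Of 29 other HSP70 family members and cochaperones, 24 were measured in the sgM16 table, with 16 lower and 3 higher in TE, 25 in the shM16 table, with 21 lower, and 27 in the sheIF4E2 table, with 19 higher and 5 lower. The shares of all genes given above apply here too, 84.3% being lower in shM16. The medians were -0.36, -0.67 and 0.49, against -0.33, -0.76 and 0.32 for all genes. The J-domain protein DNAJC8 had the highest TE value of the genes named from this list in the eIF4E2 knockdown, at 1.38 (SE 0.44, adjusted p = 0.495), and DNAJC9 the lowest in the clones, at -1.14 (SE 0.53, adjusted p = 0.582). ST13, the HSP70-interacting protein HIP, stood at 0.040 and 0.93, and DNAJA2 at -0.52 and 0.79, in the same order.

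Of 15 mitochondrial chaperones and proteases, all were measured in the sgM16 and shM16 tables and 14 in the sheIF4E2 table. In TE 10 were lower and 1 higher in the clones, 14 were lower in shM16, and 9 were higher and 1 lower in the eIF4E2 knockdown, with medians of -0.42, -0.83 and 0.50. The same shares of all genes were 55.1% lower in the clones, 84.3% lower in shM16 and 52.8% higher in the eIF4E2 knockdown, with medians of -0.33, -0.76 and 0.32. YME1L1, an inner membrane protease, stood at -1.11 and -0.0046, TRAP1, the mitochondrial HSP90, at -0.78 and 0.17, CLPX at -0.57 and 0.65 and CLPP at -0.10 and 0.72, in clones and eIF4E2 knockdown.

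HSPB1, the small heat shock protein HSP27, was the single gene in these lists that passed the test, which 0.628% of all genes passed in sheIF4E2 footprints. Its footprints stood at 177 TPM (91 reads) in shscramble 2 against 398 TPM (181 reads) for sheIF4E2 replicate 1 and 368 TPM (210 reads) for replicate 2, and rose by 1.11 (SE 0.16, adjusted p = 0.0446, limma). The call was lost when low genes were kept (limma adjusted p = 0.0919), when libraries were rescaled by medians of ratios (0.0542) or by quantiles (0.0530), and when the intensity trend was left out (0.233). It held with a pseudocount of 0.1 (0.0348) and with voom (0.0128). In the other scramble control, shscramble 1, HSPB1 footprints stood at 383 TPM (398 reads), level with both sheIF4E2 samples. With both scramble libraries as control, chosen after seeing the data, the footprint change was 0.55, a value with no test. HSPB1 input was 406 TPM against 667 and 599 TPM, a change of 0.64 (SE 0.16, adjusted p = 0.512), and its TE change was 0.47. Of the 6 small heat shock genes, 3 were measured in each table.

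HSF1, the transcription factor of the heat shock response, stood in input at 77.8 TPM in untreated cells, 51.5 and 64.1 TPM in the clones, 22.6 TPM in shscramble 1, 15.5 TPM in shM16, 65.3 TPM in shscramble 2, and 90.04 and 66.7 TPM in the sheIF4E2 samples. In the HSF1 list of 7 genes, 6 were measured in the sgM16 table and 5 in each of the others. The median input change of the list was -0.17, -0.45 and 0.092, against 0.10, -0.32 and -0.10 for all genes. Its median TE change was -0.070, -0.76 and 0.55, against -0.33, -0.76 and 0.32 for all genes. HSPBP1 TE was 0.11 and 0.47 in clones and eIF4E2 knockdown. Of 6 stress-inducible genes outside the 10, 5 were measured in the sgM16 and sheIF4E2 tables and 4 in the shM16 table. In the clones 4 of them were lower in input and 1 higher, with a median of -0.57, against 29.6% lower, 43.3% higher and a median of 0.10 for all genes. HMOX1 input stood at 235 TPM in untreated cells and at 114 and 177 TPM in the clones (-0.72, SE 0.31, adjusted p = 0.459), and SQSTM1, an autophagy receptor, at 166 TPM against 130.4 and 94.8 TPM (-0.58, adjusted p = 0.578). GADD45B input changed by -0.57. Against untreated cells these directions are opposite to that of HSP90AA1 and HSPA4 mRNA in the same clones, the genes of the 10 with the largest input rise. Of the 10, 7 were higher in both clones than in untreated cells, HSPA1A by 0.26 on average, while HSPA1B stood at 0.061, DNAJB1 at -0.14 and HSPE1 at -0.48. With both scramble libraries as control, HSP90AA1 and HSPA4 input in the clones stood at -0.34 and -0.39. In shscramble 1 and shscramble 2, HMOX1 input was 303 and 263 TPM, SQSTM1 237 and 159 TPM, and GADD45B 4.10 and 59.0 TPM. The median input change of the stress-inducible genes was -0.28 in shM16 and -0.28 in the eIF4E2 knockdown, against -0.32 and -0.10 for all genes.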

How the data were processed

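The authors deposited TPM per gene in 3 tables. Per the submitters' processing notes, the tools were featureCounts 2.0.1, STAR 2.7.5c, Bowtie2 2.2.5, Bowtie 1.3.0 and cutadapt 2.8, on GRCh38. The gene lengths used, and how reads that match several genes were counted, are not given in these sources. Per the labels' protocols, footprints had about 30 nt, and pieces of 40 to 60 nt were kept from input RNA broken up by 10 mM ZnCl2.

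The members and lists were chosen with earlier results of these data known. Changes are log2(TPM + 1), treated minus control of the same table. The TE change subtracts the input change from that of footprints. The sgM16 and sheIF4E2 tables were fitted with limma 3.58.1 (R 4.3.3) as group means over 6 libraries with an intensity trend, for genes with a mean of at least 1 TPM in both assays, and p-values (two-sided) were adjusted by Benjamini-Hochberg across all genes tested, with a threshold of 0.05. Only the treated pair gives residual degrees of freedom (2). The shM16 table has 1 sample a side and was not tested. Whole reads were recovered from the TPM steps for 11892 of 11892 genes with at least 2 values (relative tolerance 1e-09), a step tested on simulated data, where 2000 of 2000 genes came out exact. Ratios of reads carry exact 95% intervals (Clopper-Pearson, and a conditional odds ratio for TE), which cover counting error only. Named genes were all 10 members, METTL16 and EIF4E2, any list gene past the threshold, up to 4 genes per list with the largest TE change at a mean of at least 10 TPM in both assays, and the 5 genes most like HSP90AA1, of which 1 is not reported here. Alternatives were a pseudocount of 0.1, no filter, 2 scalings, no trend, voom, a replicate block, each treated sample left out and, added after seeing the data, the scramble libraries as control of the other tables.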

Additional observations from a re-analysis of the deposited data

Results flagged for a closer look

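In 6 of the heat shock genes both METTL16 guide clones had a higher input than untreated cells while the METTL16 hairpin sample had a lower input than its scramble control, a pattern that 32.2% of 7503 genes had. The clones' mean log2 change was 1.58 for HSP90AA1 (1.49 and 1.68 by clone) against -0.46 in the hairpin sample. For HSPA4 it was 1.01 (0.81 and 1.22) against -0.27, and for HSPH1 0.57 (0.71 and 0.43) against -0.56. HSPA8 gave 0.35 against -0.37, HSPD1 0.32 against -0.67, and HSP90AB1 0.16 against -0.23. The difference between the 2 kinds of depletion was not tested, since the hairpin has 1 sample on each side. The medians of all genes in input were 0.10 for the clones and -0.32 for the hairpin sample. Against the mean of both scramble libraries, HSP90AA1 input in the clones was -0.34, HSPA4 -0.39 and HSPH1 -0.77. Rescaling turned the hairpin value positive for HSPA4 (0.077 with median of ratios, 0.055 with quantile normalization), HSP90AB1 (0.12 and 0.23) and, with quantile normalization, HSPA8 (0.050).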

How the results depend on the processing

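Of the cytosolic and mitochondrial heat shock genes chosen by name at the start, none was called in any fitted comparison under any alternative with a test. HSPB1, which is not among them, was called in sheIF4E2 footprints under some settings and not under others, as given above. The replicate block, which ties the input and footprint library of the same sample, left 0 genes called in TE in both tables and the medians at -0.72 and 0.58. Leaving out 1 sgM16 clone gave medians of 0.19 to 0.37 in input, -0.40 to -0.34 in footprints and -0.95 to -0.63 in TE. Leaving out 1 sheIF4E2 sample gave -0.56 to -0.18, 0.29 to 0.38 and 0.51 to 0.56. These leave-one-out results are values with no test.

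With median-of-ratios scaling the medians of the 10 genes were 0.17 in sgM16 input, -0.15 in sgM16 footprints, -0.37 in sgM16 TE, -0.062, -0.10 and 0.081 in shM16 input, footprints and TE, 0.11 in sheIF4E2 footprints and 0.24 in sheIF4E2 TE. With quantile normalization they were 0.29, -0.15, -0.46, -0.020, -0.14, 0.036, 0.10 and 0.21 in the same order. With both scramble libraries as control, planned for shM16 and chosen after seeing the data for the other tables, they were -0.21, 0.31 and 0.57 for sgM16, -0.55 and -1.13 for shM16 input and footprints, and 0.68 for sheIF4E2 TE. Signs turned for HSPA1B sgM16 input (-0.057), HSP90AA1 (0.10) and HSP90AB1 (0.013) sgM16 footprints and HSP90AB1 (-0.085) and HSPA1A (-0.23) sheIF4E2 TE with median of ratios. They also turned for HSP90AA1 sgM16 footprints (0.16), HSP90AA1 (-0.054) and HSPA8 (-0.0057) sheIF4E2 footprints and HSPA1A sheIF4E2 TE (-0.21) with quantile normalization. In shM16, which has no test, 3 genes turned in input, 4 in footprints and 6 in TE with median of ratios, each named above, and 4, 4 and 5 with quantile normalization, HSPA8 input (0.050) among them. The cause was not tested.

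Over all genes, the 1 call in sgM16 input became 0 with a pseudocount of 0.1, no filter, either scaling or no trend, and 2 with voom. The 0 calls in sgM16 footprints became 3 with a pseudocount of 0.1. The 1 call in sheIF4E2 input became 0 with a pseudocount of 0.1, no filter or no trend, and 267 with voom. The 54 calls in sheIF4E2 footprints became 165 with a pseudocount of 0.1, 1 with no filter, 22 with median of ratios, 28 with quantile normalization, 0 with no trend and 31 with voom, and the 0 calls in sheIF4E2 TE became 1 with voom. Depth limits HSPE1, HSPA1A and HSPA1B most, with 2 to 33, 7 to 43 and 6 to 38 footprint reads in that order.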
